A study of Mus musculus with 12 samples.

Results

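The nuclear oxidative phosphorylation genes were followed through the first steps of invariant natural killer T (iNKT) cell development in the mouse thymus, in libraries labelled wild type and libraries labelled knockout for the transcriptional repressor BCL6. The set was defined by name. It holds the protein-coding genes whose GENCODE M21 symbol begins with Nduf followed by a, b, c, s or v, with Uqcr, with Cox4 to Cox8 or with Atp5, together with Sdha, Sdhb, Sdhc and Sdhd. The rule found 93 genes among the 48672 gene IDs of the count files. It uses names and no expression value, but the set was chosen with earlier results of these data known. They comprise 36 subunit genes of complex I, 8 complex I assembly factor genes (Ndufaf1 to Ndufaf8), 4 genes of complex II, 8 of complex III, 20 of complex IV and 17 of complex V. Ndufa4 and Ndufa4l2 were counted with complex IV. The 13 subunits encoded by mitochondrial DNA were not analysed here.

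RNA-seq was done on cells from thymi of C57Bl/6J mice aged 4 to 5 weeks. The cells bound the tetramer and carried the T cell receptor beta chain. Stage 0 (ST0) cells were CD24+CD44- and stage 1 (ST1) cells were CD24-CD44-. Each stage was taken from wild-type (WT) mice and from mice labelled Bcl6KO, whose genotype the series gives as CDCre;Bcl6F/F, a Cre transgene with floxed Bcl6 alleles. None of the 4 groups carried a treatment, and each was sorted from the pooled thymi of 4 to 7 mice. Each group has 3 libraries, 12 in all. Whether each library had a pool of its own is not in the labels. The p-values therefore measure the spread between these libraries, which may be technical in part.

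Oxidative phosphorylation takes place in the inner mitochondrial membrane. Complex I (NADH dehydrogenase) and complex II (succinate dehydrogenase) pass electrons to ubiquinone, complex III passes them to cytochrome c, and complex IV (cytochrome c oxidase) passes them to oxygen. Complexes I, III and IV pump protons, and complex V (ATP synthase) uses the gradient to make ATP. Resting T cells are known to rely on this pathway for much of their ATP, whereas dividing T cells combine it with glycolysis. Nuclear genes for the subunits are known targets of the factors NRF1 and GABP, the latter a member of the ETS family.

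Upstream sequences are shown for 4 genes that recur in the results: Cox6a1, a complex IV subunit whose promoter held the most motif matches of these 4, Atp5b, the most abundant member, and Ndufb8 and Ndufaf8, the members whose Bcl6KO libraries lay below the WT libraries at both stages. Each is the 250 bases before the RefSeq start on build GRCm38.p6, written 5′ to 3′ on the gene's strand, and capitals mark matches to the motifs named after the sequences. The windows are chr5:115348959-115349208 (minus strand) for Cox6a1, chr10:128083057-128083306 (plus) for Atp5b, chr19:44555443-44555692 (minus) for Ndufb8 and chr11:120098684-120098933 (plus) for Ndufaf8.
Cox6a1: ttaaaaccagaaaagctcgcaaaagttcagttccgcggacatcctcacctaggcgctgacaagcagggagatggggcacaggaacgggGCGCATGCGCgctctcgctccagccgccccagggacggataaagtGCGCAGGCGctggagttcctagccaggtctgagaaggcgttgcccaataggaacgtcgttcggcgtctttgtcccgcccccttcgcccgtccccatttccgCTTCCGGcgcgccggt
Atp5b: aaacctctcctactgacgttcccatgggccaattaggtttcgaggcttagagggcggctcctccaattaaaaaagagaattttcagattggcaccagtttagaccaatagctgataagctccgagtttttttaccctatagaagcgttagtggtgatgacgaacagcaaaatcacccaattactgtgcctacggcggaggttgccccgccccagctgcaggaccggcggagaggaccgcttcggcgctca
Ndufb8: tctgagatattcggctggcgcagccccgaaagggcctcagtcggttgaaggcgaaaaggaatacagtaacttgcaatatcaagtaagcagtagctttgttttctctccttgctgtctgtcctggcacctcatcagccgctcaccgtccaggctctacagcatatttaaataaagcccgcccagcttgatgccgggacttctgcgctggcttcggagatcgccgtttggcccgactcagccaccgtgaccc
Ndufaf8: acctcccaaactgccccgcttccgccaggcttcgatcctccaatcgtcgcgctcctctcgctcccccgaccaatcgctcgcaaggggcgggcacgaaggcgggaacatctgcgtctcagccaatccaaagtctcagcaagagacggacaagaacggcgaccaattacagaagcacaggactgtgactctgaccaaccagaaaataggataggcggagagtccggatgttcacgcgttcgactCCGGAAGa

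The motifs searched on both strands were GCGCANGCG (NRF1-type), CCGGAAG (ETS-type) and TTCNNNGAA (the palindrome read by STAT factors, which the BCL6 site resembles). RefSeq promoters were matched for 74 of the 93 members. The NRF1-type motif was present in 14 of the 74 windows (18.9%), against 7.54% of 16430 protein-coding promoters of the same length. The ETS-type motif was present in 13 members (17.6%), against 9.62% of all. Both motifs contain CG, and the member windows held more CG pairs (median 14, against 10 for all). The part of this in these shares was not tested, and the promoters compared were not limited to tested genes. The STAT/BCL6-type motif was present in 4 members (5.41%), against 6.57% of all. Cox6a1 held 3 NRF1-type matches, of which those on opposite strands overlap, and 1 ETS-type match. Ndufaf8 held 1 ETS-type match, and these letters were not found in the windows of Atp5b and Ndufb8. A match is a description of the letters and not evidence of binding.

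Between 4129919 and 8038717 counts were assigned per library. The Bcl6KO stage 0 libraries stood apart. They had 14860 to 17734 genes detected, against 18417 to 22028 in the other groups, and Sp100, a gene for a nuclear body protein, took 10.8% to 23.9% of their counts, against 0.0283% to 5.03% elsewhere. A fit with the Sp100 share as a covariate therefore cannot well separate that share from whatever else sets these libraries apart. Their TMM scaling factors were 0.906, 0.659 and 0.751, below those of the other 9 libraries, so levels in CPM (counts divided by the TMM-scaled library total and multiplied to the usual per-million basis) depend on that scaling. The Bcl6 count was 215 to 371 CPM at stage 0 and 4.13 to 8.72 CPM at stage 1 in WT libraries, and 508 to 654 CPM and 14.6 to 55.8 CPM in Bcl6KO libraries. Which exons were deleted is not stated in the sources used, and the count spans the whole gene, so it is no check of the deletion or of the labels. The summed level of 11 iNKT and T cell markers was 5317 to 6940 CPM at stage 0 and 3785 to 4712 CPM at stage 1 in WT, and 4942 to 7167 CPM and 3795 to 4329 CPM in Bcl6KO, without overlap between stages in either genotype. The summed level of 7 double-positive thymocyte markers (Rag1, Rag2, Dntt, Cd8a, Cd8b1, Cd4 and Arpp21) was 531 to 1610 CPM in WT stage 0, 195 to 583 in WT stage 1, 1315 to 1388 in Bcl6KO stage 0 and 438 to 961 in Bcl6KO stage 1. The 5 B cell markers summed to 3.33 to 56.2 CPM in WT stage 0 and 0.408 to 3.37 CPM in WT stage 1, and to 16.8 to 161 CPM and 2.57 to 7.95 CPM in Bcl6KO, where the stages did not overlap. The 5 thymic epithelium markers, of which Krt5 and Krt8 had no count, summed to 25.5 to 80.1 CPM in WT stage 0. In WT stage 1 they summed to 25.3 to 27.7 CPM. In Bcl6KO they summed to 42.7 to 55.0 CPM at stage 0 and 31.4 to 36.4 CPM at stage 1. They thus did not overlap between the Bcl6KO stages or between genotypes at stage 1. Macrophage and dendritic cell markers and erythroid markers overlapped in every single comparison. In these bulk libraries fewer cells of a type and less RNA per cell cannot be told apart.

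The 93 genes together took 0.301% to 0.449% of the counts of a library. Their summed level was 4398, 3562 and 3419 CPM in the WT stage 0 libraries and 3817, 3649 and 3937 CPM in WT stage 1. It was 4451, 4563 and 4871 CPM in Bcl6KO stage 0 and 3638, 3546 and 3706 CPM in Bcl6KO stage 1. In CPM the Bcl6KO stage 0 libraries were the highest of the 12. As a share of all counts they were not, at 0.403%, 0.301% and 0.366% against 0.428%, 0.432% and 0.348% in WT stage 0, so this order rests on the TMM scaling.

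Complex V held 44.7% of the summed level of the 93 genes, complex I 19.4%, complex IV 16.2%, complex II 7.47%, the complex I assembly factors 6.77% and complex III 5.53%. Atp5b, Atp5a1 and Sdha, the flavoprotein of complex II, made up 34.2% of it. Complex IV genes summed to 673, 615 and 601 CPM in WT stage 0 and 776, 792 and 732 CPM in Bcl6KO stage 0, without overlap. As shares of all counts the same sums overlapped, at 0.0656%, 0.0745% and 0.0612% against 0.0703%, 0.0522% and 0.0550%. Complex III genes, in contrast, summed to 246 ± 69.7 and 222 ± 30.8 CPM at stages 0 and 1 in WT, and to 198 ± 54.8 and 211 ± 62.7 CPM in Bcl6KO (SD, n = 3), with overlapping groups. The complex I assembly factors were higher at stage 0 without overlap, at 242 to 319 against 182 to 229 CPM in WT. In Bcl6KO they were 232 to 462 against 197 to 224 CPM. As shares of all counts this held in WT and not in Bcl6KO. Much of these sums came from 1 gene, Ndufaf7. In WT it averaged 184 CPM at stage 0 and 105 at stage 1, where the sums averaged 288 and 212. In Bcl6KO it averaged 224 and 131 CPM, where the sums averaged 359 and 214. The median log2 fold change of the 8 genes was -0.06 in WT, with 3 estimates positive. In Bcl6KO it was -0.28, with 4 positive. In Bcl6KO complexes I, II, IV and V were also higher in CPM at stage 0 without overlap, but overlapped as shares.

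**Figure D1:**
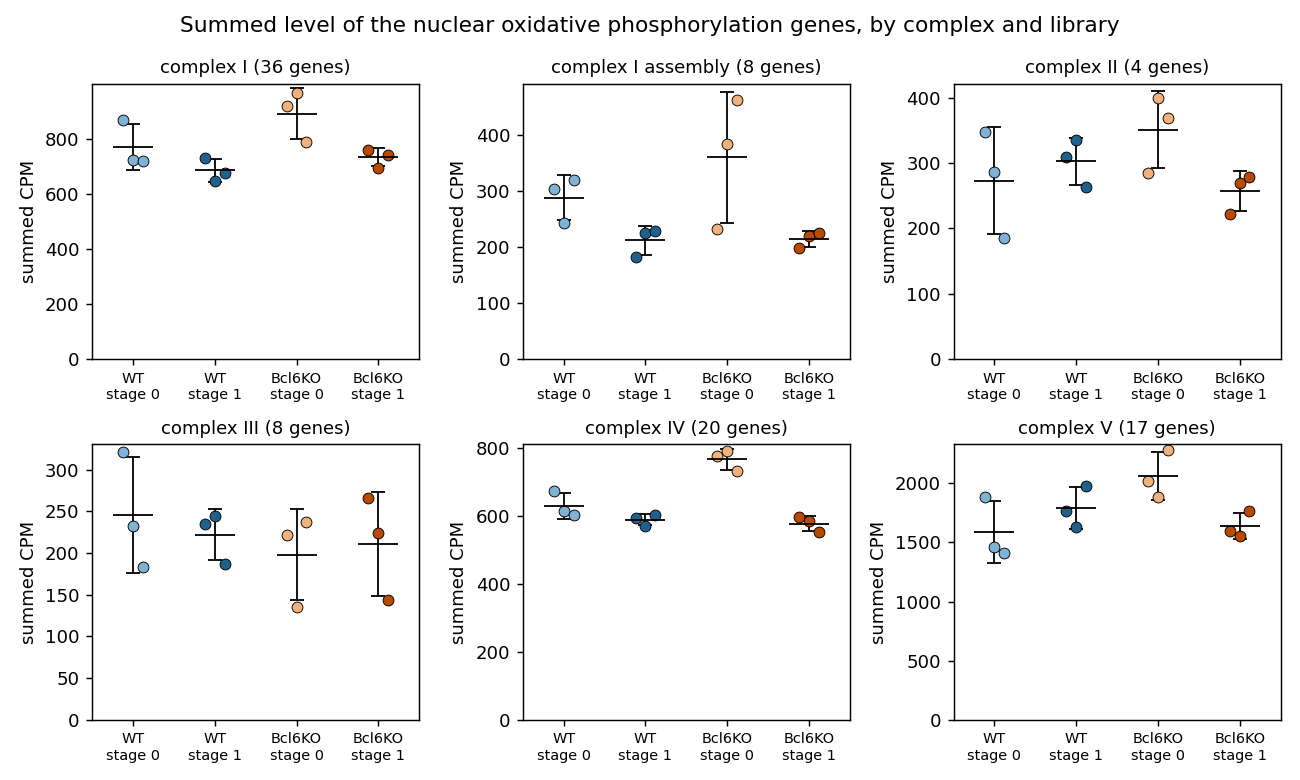
Summed CPM of the genes of each complex (y axis, from 0) in the 3 libraries of each group, with the mean and SD as bars. The Bcl6KO stage 0 libraries are highest for complex IV, at 732 to 792 CPM, on a scale that depends on TMM.

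Single members differed widely in level. Over the 12 libraries 5 members averaged over 100 CPM, 67 between 10 and 100 CPM and 21 under 10 CPM. Per kilobase of principal transcript the highest were Atp5b, the catalytic beta subunit of ATP synthase, at 432 CPM per kilobase, Cox7c, a small complex IV subunit, at 168, and Atp5a1, the alpha subunit, at 148. In the other complexes the highest were Uqcrh, the hinge protein of complex III, at 92.5 CPM per kilobase, Ndufaf7, a methyltransferase that acts on complex I in human cells, at 91.9, Ndufb5, a membrane arm subunit of complex I, at 68.3, and Sdha at 55.8. The place of Ndufb5 rests on Bcl6KO stage 0 library 2, at 373 CPM, since its mean was 73.7 CPM and its median 43.6 CPM. Sdha, at 364 CPM in that library, lay close to Sdhd at 53.8 CPM per kilobase. The lowest tested members were Atp5s at 1.96 and Ndufaf6 at 2.65 CPM per kilobase. Near-identical copies elsewhere in the genome took 47.0% of the counts of Cox7c and its copies together, so its level is uncertain, and those of Ndufs5 took 35.9% and of Uqcr10 33.1%.

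**Figure D2:**
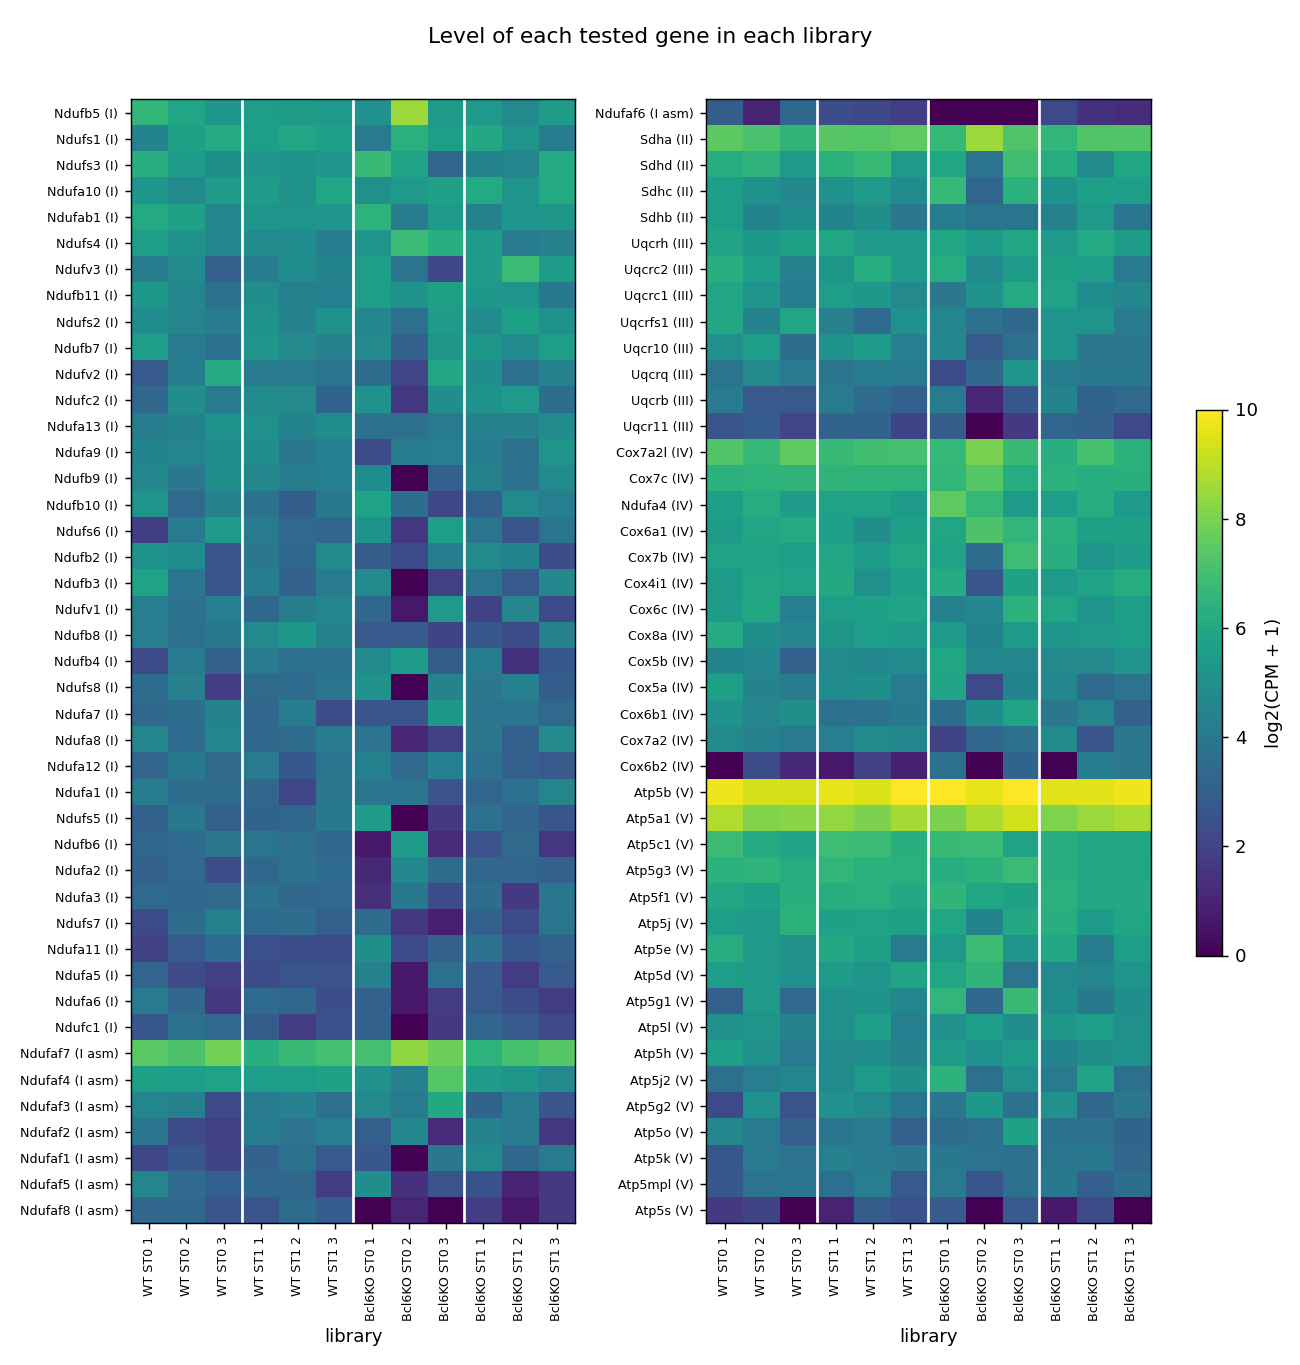
Level of the 86 tested genes as log2(CPM + 1), by colour, in each of the 12 libraries (columns, white lines between groups), with rows ordered by complex (I asm, complex I assembly factors) and then by mean level. Atp5b and Atp5a1 are the brightest rows in every library, and Ndufaf6 is dark in the 3 Bcl6KO stage 0 libraries.

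Several subunits exist as isoforms from separate genes, and these cells carried the broadly expressed form. Cox4i1 averaged 66.8 CPM per kilobase, and Cox4i2, a form known from lung and hypoxia, had 3 counts in all 12 libraries together. Cox6a1 averaged 115 CPM per kilobase, and its heart and muscle counterpart Cox6a2 had no count in any library. Cox7b and Cox8a stood at 54.7 and 73.2 CPM per kilobase, whereas Cox7b2 and Cox8b had no count and Cox8c had 1. Cox7a1, the muscle form, had 8 counts, against 25.2 CPM per kilobase for Cox7a2 and 121 for the related Cox7a2l. Ndufa4 averaged 148 CPM per kilobase and Ndufa4l2, known as a hypoxia-induced relative, 0.478. These 7 low genes, Cox4i2, Cox6a2, Cox7a1, Cox7b2, Cox8b, Cox8c and Ndufa4l2, did not pass the filter on low counts, so 86 members were tested. Where a gene had 0 counts, the limit was taken as 3 counts per library, or 0.566 to 0.612 CPM, which covers counting error only.

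Cox6b2, the testis form of Cox6b1, was the exception among the tissue-restricted forms. It was measured at 0, 4.11 and 1.17 CPM in WT stage 0, at 0.595, 2.95 and 0.816 CPM in WT stage 1, at 11.9, 0 and 8.42 CPM in Bcl6KO stage 0 and at 0, 17.2 and 14.7 CPM in Bcl6KO stage 1. The Bcl6KO libraries thus held both the highest values and 0, and the groups overlapped. Per kilobase its share of the Cox6b pair was 8.22 ± 10.2% in WT stage 0 and 40.9 ± 37.0% in Bcl6KO stage 1 (SD, n = 3). The difference between genotypes at stage 1 did not pass (log2 fold change 2.85 with an SE of 1.96; adjusted p = 1 by the quasi-likelihood test of edgeR after Benjamini-Hochberg correction).

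The c-ring of ATP synthase is built from a single mature protein that Atp5g1, Atp5g2 and Atp5g3 all encode. Per kilobase Atp5g3 supplied the largest average share, 70.0 ± 20.6% in WT stage 0, 54.5 ± 6.66% in WT stage 1, 43.7 ± 9.18% in Bcl6KO stage 0 and 54.2 ± 9.21% in Bcl6KO stage 1. Atp5g1 supplied 15.8 ± 8.92%, 21.8 ± 2.16%, 36.9 ± 26.1% and 23.2 ± 5.65% in the same order. The Bcl6KO stage 0 libraries ranged from 6.79% to 53.9% for Atp5g1, a range that holds the values of every other group. For Atp5g3 they ranged from 35.2% to 53.5%, so Atp5g3 was not the largest share in every library of that group. These shares use the shortest principal transcripts. Over the 12 libraries Atp5g1 averaged 60.4 CPM per kilobase with its shortest and 7.64 with its longest. The values were 44.5 and 26.9 for Atp5g2 and 114 and 112 for Atp5g3. The share of Atp5g1 and its place above Atp5g2 therefore depend on the length used.

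**Figure D3:**
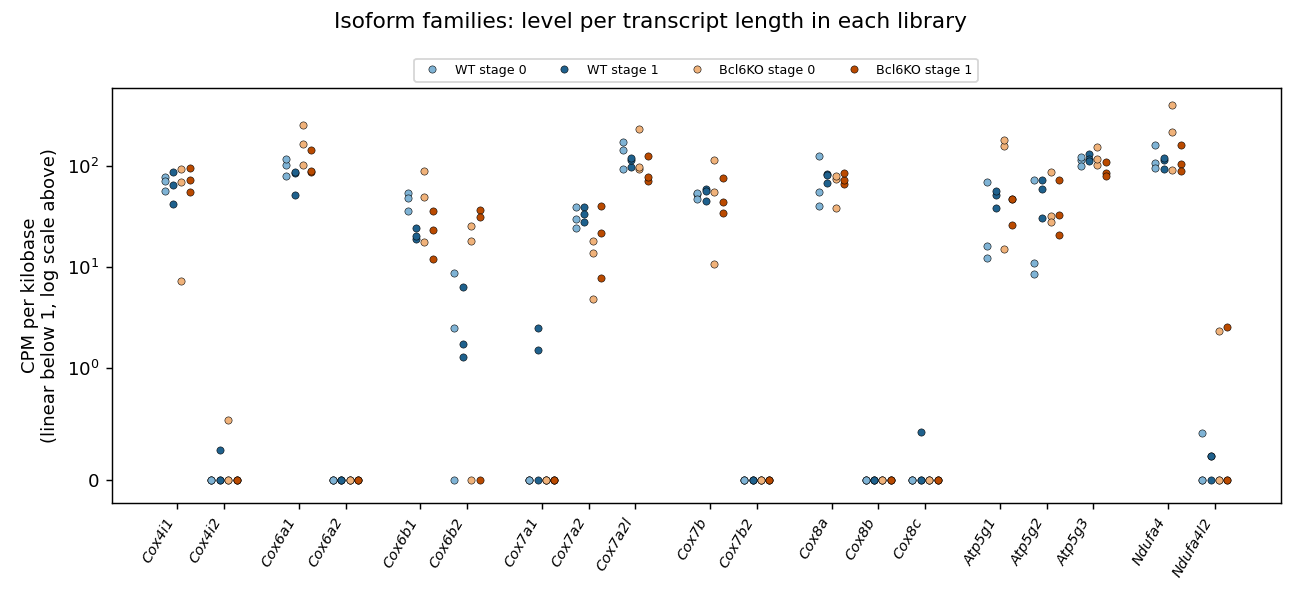
CPM per kilobase of principal transcript for isoform families, 1 point per library coloured by group, on an axis that is linear below 1 and logarithmic above. Cox6a2, Cox7b2 and Cox8b lie at 0 in all 12 libraries, and Cox6b2 is spread from 0 to its highest values in Bcl6KO.

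Between stage 0 and stage 1 in WT cells none of the 86 members passed the test (quasi-likelihood test of edgeR at an adjusted p under 0.05 by the Benjamini-Hochberg method), and 0.433% of the 15704 genes did. No member had an unadjusted p under 0.05, against 8.40% of all genes, and DESeq2 called none, against 2.39% of all genes. The summed iNKT and T cell markers differed between these groups without overlap, as given above, and their part in the result was not tested. The median log2 fold change of the members was 0.00, as was that of all genes. By complex the medians ran from -0.19 for complex I to 0.21 for complex V. Precision limits this comparison, since the 95% interval of a member extended 1.65 (median, log2 scale) to each side, and only 5 of 86 intervals lay within 1 of zero.

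The member with the lowest p in the WT stage comparison was Ndufaf7. It was measured at 174, 146 and 231 CPM in WT stage 0 and at 75.3, 109 and 129 CPM in WT stage 1, without overlap (log2 fold change -0.81, SE 0.39, edgeR adjusted p = 0.609). In Bcl6KO it was 133, 320 and 218 CPM at stage 0 and 86.6, 136 and 169 CPM at stage 1, with overlap (-0.78, SE 0.39, edgeR adjusted p = 0.336). Averaged over genotypes its log2 fold change was -0.79 (SE 0.27, edgeR adjusted p = 0.136), with an interval from -1.38 to -0.21.

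Cox6b1, a complex IV subunit facing the intermembrane space, was 34.0, 22.3 and 29.8 CPM in WT stage 0 and 11.9, 12.6 and 15.3 CPM in WT stage 1, also without overlap (log2 fold change -1.11, SE 0.71, edgeR adjusted p = 0.756). Uqcrfs1, the Rieske iron-sulfur protein of complex III, was 61.1, 21.4 and 57.6 CPM in WT stage 0 and 19.6, 10.2 and 32.5 CPM in WT stage 1, with overlap (-1.17, SE 0.68, edgeR adjusted p = 0.716). On the other side, Ndufb8, an accessory subunit of the membrane arm of complex I, was 18.6, 12 and 14.9 CPM at stage 0 and 26.4, 39.3 and 20.4 CPM at stage 1. The ranges of Ndufb8 did not overlap (0.92, SE 0.79, edgeR adjusted p = 0.868). Atp5b, whose high level gives it one of the narrower intervals, was 869, 651 and 659 CPM at stage 0 and 796, 713 and 1089 CPM at stage 1 (0.25, interval from -0.23 to 0.73). In all, 4 members (Ndufb8, Ndufaf1, Atp5j2 and Cox5b) lay wholly higher at stage 1 and 2 (Ndufaf7 and Cox6b1) wholly lower. Of all genes 12.5% lay wholly higher and 9.04% wholly lower.

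Further members with the lowest p of their complex in WT had wide intervals. Ndufv2, a core subunit of complex I, was 6.33, 17.2 and 69.9 CPM at stage 0 and 17.1, 16.9 and 13.5 CPM at stage 1, so the stage 0 libraries alone spanned the stage 1 values (-0.98, interval from -3.18 to 1.22, and 0.43 without WT stage 0 library 3). Ndufaf2, a late-acting assembly factor, was 13.4, 3.92 and 2.94 CPM at stage 0 and 17.4, 13.0 and 18.2 CPM at stage 1, with overlap (1.26, interval from -1.15 to 3.66). Atp5j2, a membrane subunit of ATP synthase, was 11.9, 18.4 and 23.3 CPM at stage 0 and 25.8, 43 and 30.2 CPM at stage 1, without overlap (0.88, interval from -0.79 to 2.56). Estimates of the others overlapped between stages, with Sdhb at -0.56, Sdha at 0.31, Uqcrb at 0.31 and Cox6a1 at -0.41. Uqcrb was -0.63 with the Sp100 covariate and -0.0183 without WT stage 1 library 1.

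In Bcl6KO cells no member passed the stage comparison, where 0.675% of all genes did. Unadjusted p was under 0.05 for 1 higher and 3 lower members, 4.65% of them, against 16.4% of all genes, and DESeq2 called 1 member (1.16%), Ndufaf6, against 8.34% of all genes. The median log2 fold change was -0.29, against 0.01 for all genes, and it became 0.22 against 0.50 when libraries were scaled by their totals without TMM. The iNKT and T cell, double-positive thymocyte, B cell and thymic epithelium markers given above also differed between these groups without overlap. So did the Sp100 share, and the part of all these in the result was not tested. Members wholly higher at stage 1 were Ndufa13 and Ndufaf6 (11.6% of all genes) and the only one wholly lower was Ndufaf3 (5.81%). No member was without overlap in the same direction in both genotypes, against 3.28% of all genes higher and 1.9% lower.

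Ndufb5 was measured at 32.0, 373 and 44.1 CPM in Bcl6KO stage 0 and at 41.1, 25.7 and 45.7 CPM in Bcl6KO stage 1. A single library therefore set its fold change of -1.99 (log2, SE 0.77, edgeR adjusted p = 0.214), and without Bcl6KO stage 0 library 2 it was -0.02. With the Sp100 share as a covariate it was 2.13. Ndufs4, an accessory subunit of complex I, was 36.0, 112 and 75.6 CPM at stage 0 and 43.9, 17.0 and 19.7 CPM at stage 1, with overlap (-1.47, SE 0.59, edgeR adjusted p = 0.229). Ndufaf3, which in human cells acts with Ndufaf4 early in complex I assembly, was 25, 16.2 and 65.8 CPM at stage 0 and 8.30, 15.8 and 5.16 CPM at stage 1 (-1.87, SE 0.85, edgeR adjusted p = 0.296). Sdha, at 103, 364 and 150 CPM against 97.8, 154 and 155 CPM, changed the sign of its estimate from -0.60 to 0.10 without Bcl6KO stage 0 library 2, and to 1.42 with the Sp100 covariate.

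In the other complexes the lowest p in the Bcl6KO stage comparison belonged to genes whose groups overlapped. Uqcrfs1 was 22.4, 12.5 and 9.01 CPM at stage 0 and 35.8, 34.8 and 16.7 CPM at stage 1 (0.99, SE 0.68, edgeR adjusted p = 0.511), the opposite sign to its WT estimate. Atp5d, the delta subunit of ATP synthase, was 59.6, 88.7 and 12.9 CPM at stage 0 and 25.9, 22.9 and 35.2 CPM at stage 1 (-0.94, SE 0.61, edgeR adjusted p = 0.487). The estimates of Cox6b1 (-1.13), Ndufa4 (-0.99), Atp5g1 (-1.56), Sdhb (0.73) and Uqcr11 (1.15) also missed the threshold. With the Sp100 share as a covariate Cox6b1 was 0.52 and Uqcr11 -3.53. Both signs turned, in a fit that cannot well separate that share from the Bcl6KO stage 0 group.

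**Figure D4:**
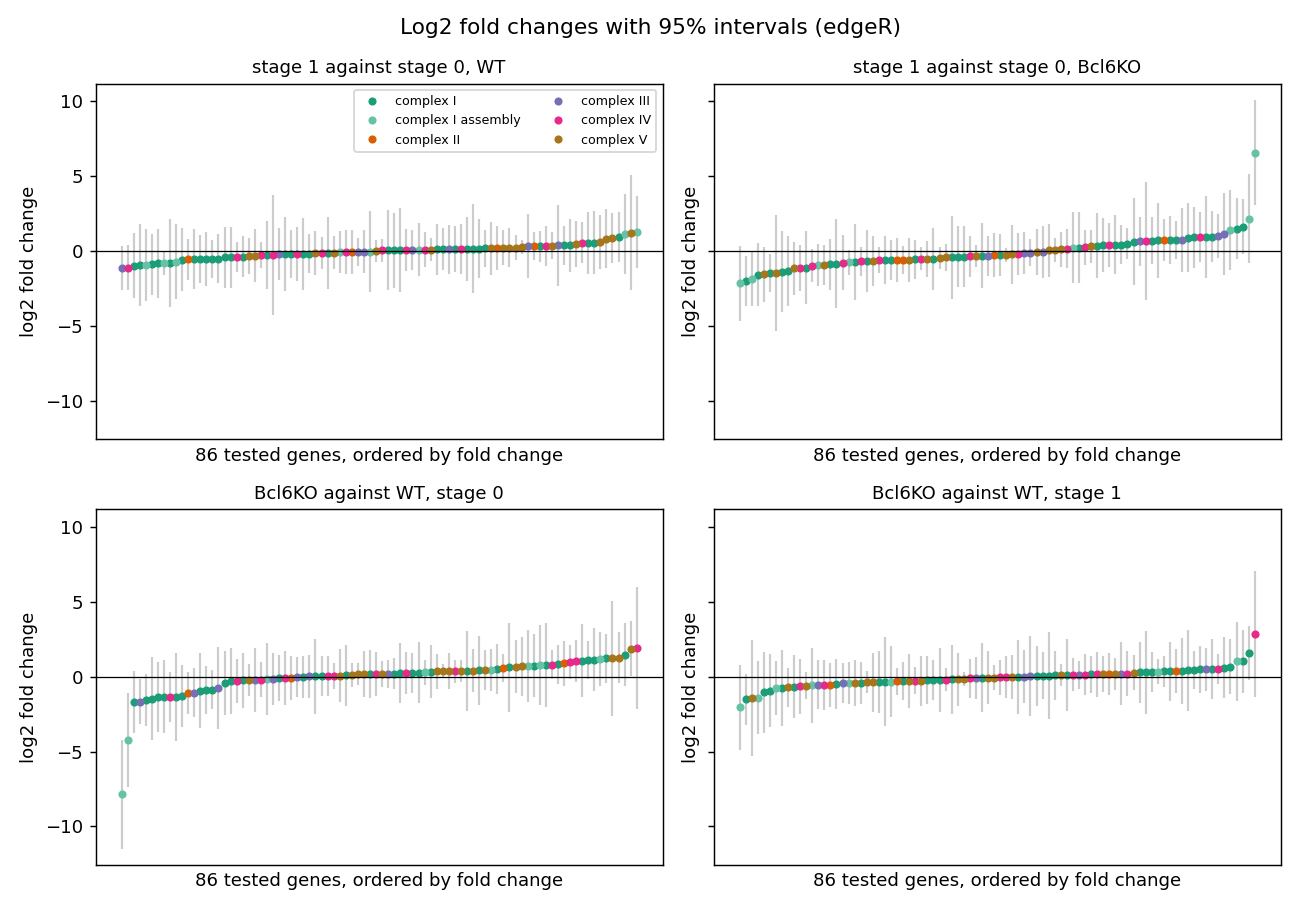
Log2 fold change (points, coloured by complex) with its 95% interval (grey lines) for the 86 tested genes in each of the 4 single comparisons, ordered by fold change within a panel. Most intervals include 0, and the outermost point in both comparisons that use Bcl6KO stage 0 is Ndufaf6, whose fitted value is not a measured fold because 3 libraries are at 0.

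For Bcl6KO against WT at stage 0 no member passed, and 0.0191% of all genes did. Those 3 genes became 133 without Bcl6KO stage 0 library 1 and 0 to 4 without any other single library, and no member was called in these fits either. Unadjusted p was under 0.05 for 1 higher and 3 lower members, 4.65% of them, against 14.7% of all genes, and DESeq2 called 2 (2.33%), Ndufaf6 and Ndufaf8, against 6.05% of all genes. The median log2 fold change of the members was 0.18, against -0.01 for all genes. On library totals without TMM it was -0.27, against -0.46 for all genes. Of the 17 complex V genes 16 had a positive estimate, with a median of 0.37 that was -0.10 on library totals without TMM. Groups did not overlap for 7 members, all lower in Bcl6KO: Ndufa9, Ndufa13, Ndufb8, Ndufaf6, Ndufaf8, Sdhb and Cox7a2. Of all genes 4.67% lay wholly higher and 7.95% wholly lower.

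Ndufaf6 (ENSMUSG00000050323, mm10 chromosome 4, 11051045 to 11076205, minus strand), a complex I assembly factor, had 0 counts in all 3 Bcl6KO stage 0 libraries, against 6.72, 0.980 and 9.40 CPM in WT stage 0, where counts ran from 5 to 48. The WT stage 0 mean was 9.78-fold the floor of 3 counts per library. This is no lower bound of the difference, since 1 WT library lay at 0.980 CPM. The edgeR adjusted p between genotypes was 0.108. Bcl6KO stage 1 libraries held 3.76, 1.78 and 1.39 CPM, with a mean of 3.96-fold that floor (edgeR adjusted p = 0.0881 between stages). WT stage 1 libraries held 4.16, 3.54 and 2.65 CPM. DESeq2 gave adjusted p = 0.00126 for the genotypes at stage 0 and 0.00987 for the stages in Bcl6KO. The same 3 libraries had the fewest genes detected, with 2, 10 and 2 tested members at 0 counts, against 0 or 1 in the other libraries, and 10.1%, 20.7% and 15.1% of all tested genes at 0, against 1.03% to 9.15% in the other 9 libraries. The part of this in the result was not tested.

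Ndufaf8 (ENSMUSG00000078572, chromosome 11, 120098928 to 120100705, plus strand), which in human cells stabilises the assembly factor NDUFAF5, was measured at 8.90, 9.01 and 5.09 CPM in WT stage 0 and at 0, 1.13 and 0 CPM in Bcl6KO stage 0. At stage 1 it was 5.16, 10.6 and 6.53 CPM in WT and 2.57, 0.593 and 2.19 CPM in Bcl6KO. All Bcl6KO libraries lay below all WT libraries, at both stages. The Bcl6KO counts were few, 0, 6 and 0 at stage 0 and 13, 3 and 11 at stage 1, beside the floor of 3 counts. The lower detection of the Bcl6KO stage 0 libraries given above applies to Ndufaf8 too, and its part was not tested. The stage 0 difference did not pass in edgeR (adjusted p = 0.226) and passed in DESeq2 (adjusted p = 0.0179). The stage 1 difference did not pass (log2 fold change -2.04, SE 1.31, edgeR adjusted p = 1).

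Ndufb8 (ENSMUSG00000025204, chromosome 19, 44548572 to 44555440, minus strand) was 5.96, 6.41 and 3.13 CPM in Bcl6KO stage 0, below the 12 to 18.6 CPM of WT stage 0 (log2 fold change -1.55, SE 0.80, edgeR adjusted p = 0.395). In Bcl6KO stage 1 it was 5.73, 4.15 and 20.1 CPM, below the WT stage 1 libraries, the lowest of which was 20.4 CPM (-1.52, SE 0.80, edgeR adjusted p = 1). Library 3 of Bcl6KO stage 1 thus lay just under the WT range. Ndufb8 and Ndufaf8 were the 2 members lower in Bcl6KO without overlap at both stages, a pattern held by 0.809% of all genes. No member was higher at both, against 0.688% of all genes.

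**Figure D5:**
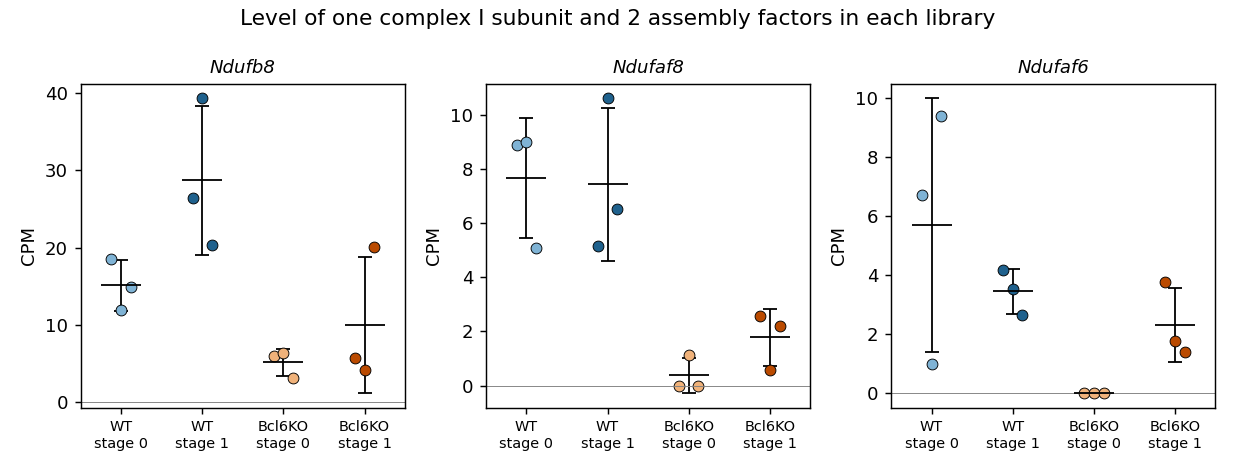
CPM of Ndufb8, Ndufaf8 and Ndufaf6 in each library (points), with the group mean and SD (bars). Bcl6KO libraries lie below WT libraries of the same stage for Ndufb8 and Ndufaf8, and Ndufaf6 is at 0 in all 3 Bcl6KO stage 0 libraries.

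Other members with the lowest p at stage 0 overlapped between genotypes, apart from Sdhb. Sdhb, the iron-sulfur subunit of complex II, was 48.1, 21.7 and 27.8 CPM in WT and 17.5, 14.0 and 13.7 CPM in Bcl6KO (log2 fold change -1.11, SE 0.65, edgeR adjusted p = 0.450). Uqcrfs1 was 22.4, 12.5 and 9.01 CPM in Bcl6KO, against 21.4 to 61.1 CPM in WT (-1.67, SE 0.69, edgeR adjusted p = 0.294). Atp5g1 was 7.32, 41.3 and 9.60 CPM in WT and 95, 9.06 and 110 CPM in Bcl6KO, so that its libraries were split within each genotype (1.88, SE 0.86, edgeR adjusted p = 0.337). Ndufa4 was 48.5, 73.1 and 43.7 CPM in WT and 184, 98.9 and 42.1 CPM in Bcl6KO (0.98, SE 0.51, edgeR adjusted p = 0.397). The estimates of Ndufs4 (1.10), Uqcr10 (-1.08), Cox6a1 (0.81), Sdha (0.59) and Atp5b (0.37) missed the threshold as well. All 5 turned sign under an alternative, to -0.0138, 1.39, -0.18 and -1.34 for the first 4 with the Sp100 share as a covariate, and to -0.0739 for Atp5b on library totals without TMM. Sdha was also -0.12 without Bcl6KO stage 0 library 2. The covariate fit cannot well separate the Sp100 share from the Bcl6KO stage 0 group.

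At stage 1 no member and 0% of all genes passed between genotypes by the edgeR quasi-likelihood test. No member had an unadjusted p under 0.05, against 2.57% of all genes, and DESeq2 called none, against 0.127% of all genes. The summed thymic epithelium markers given above were higher in Bcl6KO without overlap, and their part in the result was not tested. The median log2 fold change was -0.06, against 0.02 for all genes, and complex medians ran from -0.49 for the assembly factors to 0.07 for complex I. Groups did not overlap for 2 higher members, Ndufa11 and Ndufv3, and 9 lower members, against 5.87% and 7.44% of all genes. Ndufv3, an accessory subunit of the NADH-binding module, was 17.4, 28.1 and 22 CPM in WT and 43.5, 111 and 45.3 CPM in Bcl6KO (1.56, SE 0.84, edgeR adjusted p = 1). Atp5c1, the gamma subunit that turns inside ATP synthase, was 119, 111 and 77.8 CPM in WT and 75.3, 63.3 and 63.2 CPM in Bcl6KO (-0.61, SE 0.41, edgeR adjusted p = 1). Sdha was 170, 158 and 181 CPM in WT and 97.8, 154 and 155 CPM in Bcl6KO (-0.32, interval from -1.25 to 0.61). The other members with the lowest p of their complex were Ndufaf5 (-1.40), Sdhd (-0.54), Uqcr10 (-0.55), Uqcrfs1 (0.49), Cox6a1 (0.51) and Atp5d (-0.71), all log2 fold changes.

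Averaging over the other factor narrowed the intervals and called no member. For stage 1 against stage 0 over both genotypes 3.46% of all genes passed and 5 members had an unadjusted p under 0.05 (5.81%, against 18.3% of all genes). These were Ndufaf6 on the higher side and Ndufaf7, Ndufb5, Ndufs4 and Cox6b1 on the lower side, and the median of the members was -0.09. DESeq2 called no member and 9.52% of all genes. For Bcl6KO against WT over both stages 0.00637% of all genes passed, and the members with an unadjusted p under 0.05 were Ndufaf6, Ndufaf8 and Ndufb8, all lower (3.49%, against 10.9% of all genes). DESeq2 called Ndufaf6 and Ndufaf8 there (2.33% of the members, against 2.87% of all genes). No member and 0% of all genes passed the edgeR test for a difference between the stage effects of the genotypes. Unadjusted p was under 0.05 for Ndufaf6 and Uqcrfs1 (2.33%, against 7.78% of all genes), and DESeq2 called no member and 0.828% of all genes. The interval of the averaged genotype difference lay within 1 log2 unit of zero for 14 of 86 members. Precision was lower for the difference between the stage effects. Its interval extended 2.30 (median, log2 scale) to each side and lay within 1 log2 unit of zero for 0 of 86 members. A difference in these effects is therefore not excluded.

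Spread between libraries followed the group and the level. The median coefficient of variation of a member was 42.3% in WT stage 0, 24.5% in WT stage 1, 74.1% in Bcl6KO stage 0 and 42.4% in Bcl6KO stage 1, beside 57.4%, 36.2%, 83.4% and 49.8% for all genes. Members under 20 CPM had intervals of 2.13 (median, log2 scale, WT stage comparison) to each side, and those over 50 CPM of 0.92. The members' principal transcripts had a median length of 772 bases, against 2486 for all tested genes.

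The other genes of the pathway were followed in 4 lists written from general knowledge, and no gene of any list passed in any comparison by edgeR. Of 41 assembly factors outside the rule, none had an unadjusted p under 0.05 in the WT stage comparison, against 8.40% of all genes, and the 2 with the lowest p were Sdhaf4 and Sco2, which help assemble complexes II and IV. In Bcl6KO 6 of these 41 were higher and 3 lower at stage 1 at that p, against 16.4% of all genes, and 1 was higher and 4 lower in Bcl6KO than in WT at stage 0, against 14.7%. At stage 1 none was higher and 2 were lower in Bcl6KO than in WT, against 2.57%. Of 18 electron carriers and nucleotide exchangers none did in the WT stage comparison, 1 was higher and 1 lower in the Bcl6KO stage comparison, and 1 was higher between genotypes at stage 0. Vdac1, the outer membrane channel, averaged 41.8 ± 8.10 CPM at stage 0 and 86.2 ± 30.3 CPM at stage 1 in WT (edgeR adjusted p = 0.630), and Atpif1, an inhibitor of ATP synthase, at 37.6 ± 19.3 and 15.4 ± 3.96 CPM. Of 19 regulators of mitochondrial biogenesis 1 had an unadjusted p under 0.05 between genotypes at stage 0 and none between stages in Bcl6KO. In the WT stage comparison only Polg, the mitochondrial DNA polymerase, had an unadjusted p under 0.05, at 112 ± 79.8 and 40.1 ± 12.3 CPM (log2 fold change -1.48, SE 0.52, edgeR adjusted p = 0.396). Ppargc1b, a coactivator of mitochondrial genes, stood at 2.36 ± 1.30 and 13.2 ± 4.89 CPM (edgeR adjusted p = 0.756). Of 20 genes of the citric acid cycle none had an unadjusted p under 0.05 in any of the 7 comparisons. Idh3b, a subunit of the NAD-dependent isocitrate dehydrogenase, stood at 165 ± 70.0 and 79.3 ± 10.2 CPM (edgeR adjusted p = 0.630), and Idh2, the mitochondrial NADP-dependent enzyme, at 4.64 ± 3.67 and 20.7 ± 12.5 CPM (0.634).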

How the data were processed

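The authors deposited 1 file of raw gene counts for each library, all over the same 48672 Ensembl IDs. The tools named are bcl2fastq, TopHat2, Bowtie2 and DESeq, with build mm10, per the submitters' processing notes; per the labels' protocols, RNA was taken up on a QIAGEN column and libraries were made with the NuGEN Ovation Ultralow kit. Of tool versions, counter, annotation and strand setting the sources used say nothing, so reads of overlapping genes cannot be told apart. Over 10% of exonic bases overlap another gene for 10 members, and near-identical copies (90% identity over 60% of coding length) hold over 10% of the counts for 11.

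Symbols came from GENCODE M21 (94 rule matches, 93 in the files). Counts were scaled by TMM, filtered by filterByExpr to 15704 genes and fitted over all 12 libraries with edgeR 4.0.16 (R 4.3.3), with 1 mean per group, robust quasi-likelihood dispersion and 8 residual degrees of freedom. The common biological coefficient of variation was 0.835. Tests were two-sided, with Benjamini-Hochberg adjustment over all genes at 0.05, for 7 comparisons. DESeq2 1.42.0 was an alternative. CPM per kilobase used the shortest APPRIS principal transcript. No pair of libraries in a group agreed within sampling noise (chi-square per gene 27.6 to 170). The procedure was run on simulated counts, with changes planted only in WT stage 1 and only in genes over 20 CPM. It therefore does not cover changes in the 39 tested members under 20 CPM or in Bcl6KO libraries.

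Members and lists were chosen with earlier results of these data known. Named genes were, per complex and single comparison, the 2 members with the lowest p, the member with the highest CPM per kilobase of each complex, all isoform families, Bcl6 and the 2 lowest p of each pathway list in the WT stage comparison. Atp5a1, Atp5s, Ndufs5 and the genes named only for groups that did not overlap were chosen after their values were seen.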

Additional observations from a re-analysis of the deposited data

How the results depend on the processing

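Results were recomputed under 23 alternatives, and 1085 of 1102 values of named genes kept their direction and side of the threshold. DESeq2 called 1 member for the stages in Bcl6KO (1.16%, against 8.34% of all genes), 2 for the genotypes at stage 0 (2.33%, against 6.05%) and 2 for the averaged genotypes (2.33%, against 2.87%); under every other alternative each comparison called 0 members. Over all genes, leaving out 1 library at a time gave 20 to 139 calls for the stages in WT, 7 to 277 in Bcl6KO, 193 to 708 averaged, and 0 to 133, 0 to 1 and 0 to 62 for the genotypes at stage 0, stage 1 and averaged. Library totals without TMM moved the median of the members to 0.22 (stages in Bcl6KO), -0.27 (genotypes at stage 0) and 0.21 (difference between stage effects), while the median of all genes moved to 0.50, -0.46 and 0.46, and turned Atp5b at stage 0 to -0.0739. Upper-quartile factors moved the median of all genes to 0.13 and -0.16 in the first 2 of these. With the Sp100 share as a covariate the medians were -0.45 (averaged stages), 0.58 (genotypes at stage 0) and -0.58 (difference), against -0.06, 0.11 and -0.01 for all genes. This share cannot be well separated from the Bcl6KO stage 0 group. With it 0 genes were called for the stages in Bcl6KO, against 106 in the main fit. The same covariate turned Uqcrb to -0.63 (stages in WT), Ndufb5 to 2.13, Sdha to 1.42, Uqcr11 to -3.53 and Cox6b1 to 0.52 (stages in Bcl6KO), and Ndufs4 to -0.0138, Sdha to -1.34, Uqcr10 to 1.39 and Cox6a1 to -0.18 (genotypes at stage 0). Removing a length trend gave medians of -0.78 (stages in Bcl6KO) and 0.54 (genotypes at stage 0), against -0.37 and 0.28 for all genes. The causes were not tested. Leaving out 1 library at a time gave -1.50 to 0.43 for Ndufv2 and -0.0183 to 0.93 for Uqcrb (stages in WT), and -0.91 to 0.10 (stages in Bcl6KO) and -0.12 to 0.90 (genotypes at stage 0) for Sdha. The sign turned without WT stage 0 library 3, WT stage 1 library 1 and, for Sdha, Bcl6KO stage 0 library 2. With the replicate number as a block (replicate block) 0 members were called in each comparison and the medians in the single comparisons were 0.01, -0.10, 0.11 and -0.10; same-numbered libraries correlated at -0.08 to 0.12, so the numbers were not taken to pair them. Fitting only the groups compared is the same fit for averages and the difference, and was not run there. The spread between 3 libraries and their depth limit all of these values.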
